A study of Mus musculus with 28 samples.

Results

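The hormone response of luminal cells was compared with that of stromal cells in the tdTomato+ cells of the mouse mammary gland, that is, in the cells left outside the *Pdgfra* lineage label. The comparison uses 14 of the 28 libraries of the series, chosen by their titles: a luminal and a stromal tdTomato+ library from each of 7 female mice, of which 4 were untreated and 3 had received estradiol plus progesterone (E+P). For each gene, the luminal minus stromal difference of the log2 level was taken within a mouse, and this difference was compared between E+P and untreated mice. The result is called the interaction here, and a positive (higher) interaction means that E+P moved the gene up in luminal cells relative to the stroma of the same mice.

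All mice were adults (10 to 12 weeks for this model in the methods) on the C57BL/6 background and carried *PdgfraCre* and the reporter *R26mTmG*, in which every cell makes tdTomato until Cre switches it and its progeny to GFP. The Cre was constitutive, so a tdTomato+ cell is one in which neither the cell nor a forebear had recombined, and a cell that missed recombination carries tdTomato too. Untreated mice received no pellet, and the E+P pellets are described as holding 0.14 mg of 17β-estradiol with 14 mg of progesterone, released over 14 days in mice with intact ovaries, in a passage on wild-type mice of 10 to 13 weeks. Cells positive for CD31, Ter119 or CD45 were gated out, stromal cells were sorted as negative for CD49f and EpCAM, and luminal cells as EpCAM+ with low CD49f.

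Estrogen and progesterone act through nuclear receptors (*Esr1*, *Pgr*) that a subset of luminal cells carries. These sensing cells pass the signal on by secreted factors, among them RANKL (*Tnfsf11*) and amphiregulin (*Areg*), so that neighbouring cells divide and side branches and alveoli form. The stroma around the ducts holds fibroblasts, adipocyte progenitors, pericytes and smooth muscle, and supplies matrix and growth factors, while prolactin, through JAK2 and STAT5, later drives milk production in luminal cells.

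The 14 libraries held between 10231034 and 24583803 counted reads, and the genome-wide correlation of log2 levels within a group ran from 0.915 to 0.983 (Pearson, over genes, which are not independent replicates). Levels are CPM, counts scaled by TMM to a common library size, and 3 reads correspond to between 0.112 and 0.285 CPM in a library, a floor that covers counting error only. In bulk RNA of sorted cells, fewer cells of a kind and less RNA per cell cannot be told apart. The luminal gate held its markers. The summed level of 12 luminal epithelial genes (keratins 8, 18, 19 and 7, *Epcam*, claudins and others) was 8693 ± 389 CPM (SD, n = 4) in untreated and 8929.7 ± 294 CPM (n = 3) in E+P luminal cells, and *Pdgfra*, the marker of the traced lineage, lay at 3.83 ± 1.55 and 4.72 ± 0.396 CPM.

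The stromal gate was mixed. Its libraries were rich in pericyte and smooth muscle genes (13 genes, summed 8087 to 11058 CPM over the 7 libraries, with *Rgs5* at 2099 ± 680.1 CPM untreated) and in skeletal muscle genes, which summed to 14144 ± 9312 CPM untreated and 25368 ± 14518 CPM under E+P. Fibroblast genes were lower in level, at 4304 ± 2068 CPM untreated and 2112 ± 272 CPM under E+P. The 10 basal epithelial markers summed to 4420.1 ± 2240.0 CPM in untreated and 2926 ± 358 CPM in E+P stroma. The contractile genes *Acta2*, *Myh11*, *Mylk* and *Cnn1*, which smooth muscle also makes, are among them, with *Myh11* alone at 3045 ± 1592 and 1943 ± 248 CPM. The basal keratins *Krt5* and *Krt14* had stromal group means of at most 1.56 CPM. The luminal epithelial genes summed to 96.4, 385, 617 and 22.9 CPM in the stroma of untreated mice 1 to 4 and to 13.9, 52.7 and 7.12 CPM in the stroma of E+P mice 1 to 3. Stroma of untreated mice 2 and 3 thus stood above the other 5 stromal libraries in luminal transcripts, and this is given beside the genes it moves with. Genes of blood cells and endothelium, which the gate was meant to remove, were low but not absent. Haematopoietic markers summed to 7.86 ± 0.237 and 10.1 ± 4.27 CPM in luminal cells and to 58.7 ± 19.3 and 54.4 ± 11.8 CPM in stroma, with *Ptprc* (CD45) at 12.99 ± 5.57 and 10.5 ± 2.65 CPM there. The summed level of endothelial markers was higher under E+P in both compartments. It was 93.1 ± 38.3 and 252 ± 11.7 CPM in luminal cells and 499.9 ± 76.5 and 759 ± 115 CPM in stroma. Over the 14 genes, however, the median luminal change was −0.18 and the median stromal change 0.77 on the log2 scale. In luminal cells 1 of the genes rose and 1 fell at 0.01 (edgeR). *Pecam1* (CD31) was at 1.66 ± 0.544 and 0.863 ± 0.150 CPM in luminal cells. Of the 14 endothelial genes, *Pecam1* and *Eng* had a lower interaction at 0.05, against 1.54% of all genes, and 0 at 0.01. The part of such cells in other results was not tested.

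**Figure D1:**
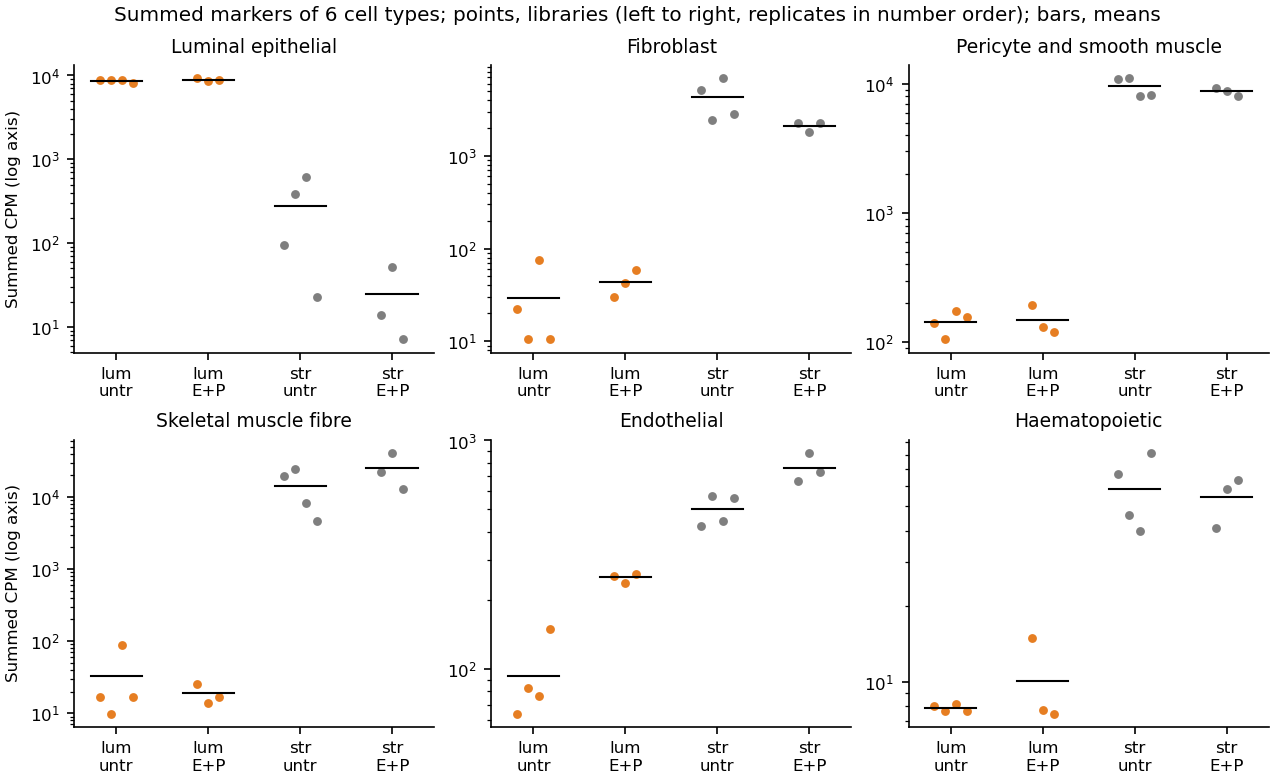
Summed CPM (log axis) of the marker lists of 6 cell types in the 14 tdTomato+ libraries, orange for luminal (lum) and grey for stromal (str) cells of untreated (untr) and E+P mice. Points are libraries with replicates in number order from left to right, and bars are group means. Luminal epithelial markers ran from 22.9 to 617 CPM in untreated stroma and from 7.12 to 52.7 CPM in E+P stroma, and muscle markers were high in all 7 stromal libraries.

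Most of the differences in response lay on the luminal side. Of 18387 genes tested, 214 (1.16% of all tested) passed an adjusted p of 0.01 for the interaction in edgeR's quasi-likelihood test, fitted within mice. Of these, 156 were higher (0.848%) and 58 lower (0.315%), and 763 genes (4.15%) passed 0.05. In a fit without the mice, E+P against untreated gave 1255 genes in luminal cells (6.83%), 784 that rose (4.26%) and 471 that fell (2.56%). In stroma 3 genes passed (0.0163%), all of which fell. The E+P luminal libraries also stood apart in composition. Their 10 most abundant genes took 27.9% to 33.5% of counts against 24.6% to 25.96% in untreated luminal cells, mitochondrial genes took 10.7% to 12.8% against 9.90% to 10.4%, and TMM factors were 0.948 to 0.994 against 1.08 to 1.18. The part of these differences in the counts of genes was not tested. The luminal number of genes was 593 without E+P mouse 1 or 3 and 625 without E+P mouse 2. Of the 156 higher genes, 145 passed 0.01 in luminal cells only, where they rose. Another 1 passed in stroma only, where it fell, and 10 passed in neither. Of the 58 lower genes, 54 passed in luminal cells only, where they fell, and 4 passed in neither. With 3 genes past 0.01 in stroma, this split cannot show a stromal change that missed the threshold. The stroma of *Tnfsf11*, for example, did not overlap between the treatments. The median size of the luminal change over the 214 genes was 2.29 on the log2 scale, against 0.359 for the stromal change, and the luminal change was the larger in 202 of 214. The median interaction over all genes was 0.03. The within-mouse differences of E+P and untreated mice did not overlap for any of the 214 genes, which holds for 10.9% of all genes in the higher direction and 8.81% in the lower.

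Before treatment the 214 genes stood on both sides of the 2 compartments. Among the 156 higher genes, the order of luminal and stromal levels was reversed by E+P in 70, an existing difference widened in 57 and narrowed in 29. Among the 58 lower genes, the order was reversed in 21, the difference widened in 34 and narrowed in 3. The plot of luminal against stromal responses shows the called genes along the luminal axis.

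**Figure D2:**
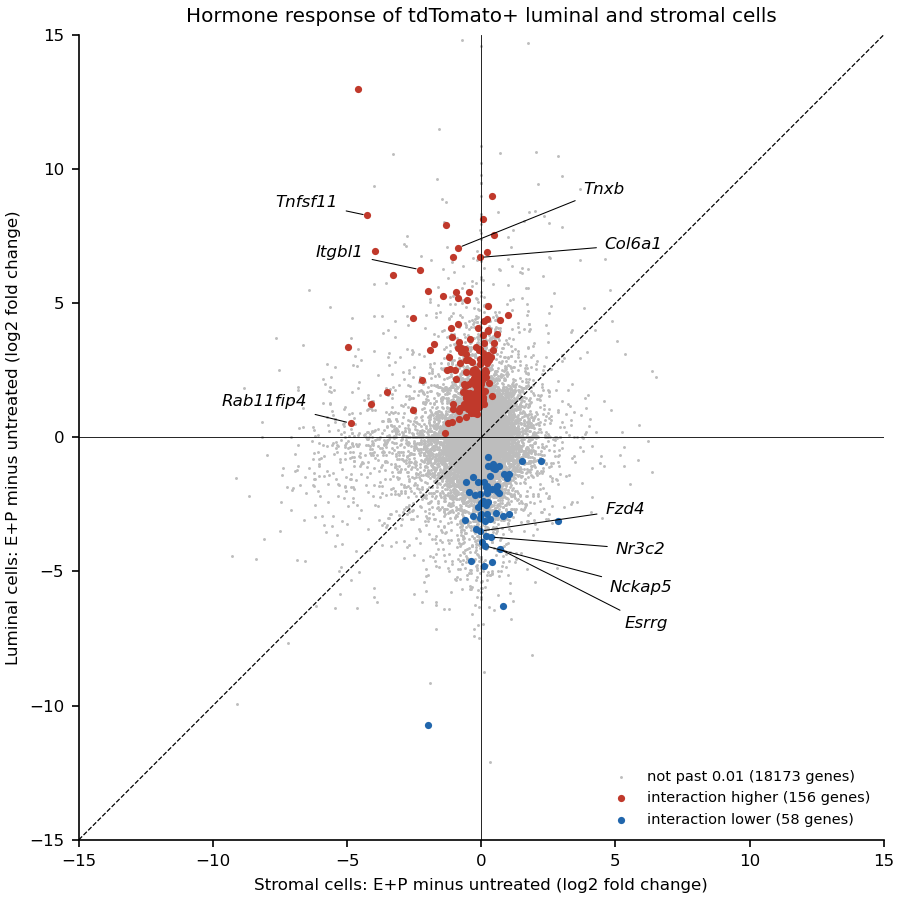
Log2 fold change of E+P against untreated in stromal (x axis) and luminal (y axis) tdTomato+ cells for the 18387 genes tested, with the 156 genes of higher interaction in red and the 58 of lower interaction in blue. The dashed line marks equal change in both, and the coloured points lie along the vertical axis, with a median absolute luminal change of 2.29 against 0.359 in stroma.

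The number of genes depended on the mice. It ran from 49 without E+P mouse 3 to 226 without untreated mouse 4, with 62 without E+P mouse 2, 70 without E+P mouse 1, 94 without untreated mouse 1, 202 without untreated mouse 2 and 105 without untreated mouse 3. Without untreated mice 2 and 3 together it was 164, of which 100 are among the 214. Without the mouse block 456 genes (2.48%) passed, 194 of the 214 among them. When libraries were scaled by size alone the split changed from 72.9% to 52.2% higher (245 genes), and the median of all genes moved from 0.03 to −0.18, so directions are relative to the scaling.

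The largest higher interaction with counts in every group was that of *Tnfsf11* (ENSMUSG00000022015.8, chromosome 14, 78277445 to 78308043), which encodes RANKL, the progesterone-induced paracrine ligand. It was counted at 0.879, 0, 0 and 0.598 CPM in luminal cells of untreated mice 1 to 4 and at 145, 116 and 126 CPM in those of E+P mice 1 to 3. In stroma it was at 4.48, 0.368, 0.403 and 2.19 CPM untreated and 0.153, 0.0982 and 0 CPM under E+P. All 3 E+P luminal libraries lay far above every other library, the next highest being the stroma of untreated mice 1 and 4, and stroma too did not overlap between the treatments. The interaction was 12.78 ± 0.68 (log2 ± SE derived from the F statistic, adjusted p = 7.94e-05, edgeR's quasi-likelihood test). The luminal level rose 349-fold between group means, and the call remained past 0.01 with any 1 of the 7 mice left out (highest adjusted p 0.00112). *Calca*, which encodes calcitonin and CGRP, rose from 0.931, 0, 0.351 and 2.09 to 880.1, 176 and 189 CPM in luminal cells. Its interaction of 10.24 ± 1.49 passed 0.05 and not 0.01 (adjusted p = 0.0173, edgeR, and 0.0773 without E+P mouse 2).

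Several leading genes were near 0 in untreated luminal cells and rose under E+P. *Acsl6* (ENSMUSG00000020333.17, chromosome 11, 54303798 to 54364756), an acyl-CoA synthetase, had 0.103, 0, 0 and 0 CPM in untreated luminal cells and 24.4, 14.6 and 12.7 CPM under E+P, against 1.68, 2.02, 1.75 and 0.761 and 2.76, 1.72 and 1.67 CPM in stroma. The groups did not overlap in luminal cells and did in stroma. Only 2 reads were counted in untreated luminal cells, so the interaction is given with that group set to the floor, 8.38 (adjusted p = 0.000923, edgeR, at most 0.00915 with 1 mouse left out). *Adh7* (ENSMUSG00000055301.8, chromosome 3, 138217760 to 138233382), an alcohol and retinol dehydrogenase, rose from 0.102 ± 0.0904 to 24.5 ± 8.76 CPM in luminal cells, and its stroma was at 2.06, 1.66, 3.63 and 2.66 CPM untreated and 0.205, 1.33 and 1.495 CPM under E+P. Its interaction was 9.37 ± 1.01 (adjusted p = 0.00140, edgeR, and 0.0156 without E+P mouse 3). *Gda* (ENSMUSG00000058624.12, chromosome 19, 21391307 to 21473445), guanine deaminase, rose 44.8-fold in luminal cells, from 1.03, 0.0613, 1.68 and 2.09 to 54.9, 47.3 and 61.6 CPM. In stroma it ran from 2.30 to 19.0 CPM untreated and from 1.94 to 3.83 CPM under E+P, so E+P reversed the order of the compartments. The interaction was 7.51 ± 0.74 (adjusted p = 0.00121, edgeR, and 0.0110 without E+P mouse 3).

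*Pla2g7* (ENSMUSG00000023913.17, chromosome 17, 43568098 to 43612201), which encodes the secreted platelet-activating factor acetylhydrolase, was at 0.103, 0, 0 and 0.374 CPM in untreated and 7.66, 15.2 and 24.8 CPM in E+P luminal cells, and at 2.52, 1.29, 12.2 and 4.28 and 1.84, 1.77 and 3.83 CPM in stroma. The luminal groups did not overlap, and the stroma of untreated mouse 3 was the highest of its group. The interaction was 7.64 ± 0.97 (adjusted p = 0.00366, edgeR, and 0.0298 without E+P mouse 3). *Itgbl1* (ENSMUSG00000032925.16, chromosome 14, 123659971 to 123975618), a secreted protein with integrin-like repeats, was a stromal transcript before treatment, at 21.8, 10.1, 26.2 and 23.1 CPM against 0, 0, 0.211 and 0.0374 CPM in luminal cells. Under E+P luminal cells held 5.68, 3.61 and 4.57 CPM and stroma 5.58, 0.737 and 6.28 CPM, so that the levels of both compartments overlapped. The interaction was 8.95 ± 0.96 (adjusted p = 0.00140, edgeR, at most 0.00780 with 1 mouse left out).

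*Sprr2g*, a small proline-rich protein of the cornified envelope, had 0 reads in all untreated luminal libraries and 33.7, 79.1 and 66.1 CPM under E+P, with 8 reads in untreated stroma and 0 in E+P stroma. Its interaction was at least 12.39 with empty groups at the floor of 3 reads (adjusted p = 0.00842, edgeR), but it is a member of a family of near-identical genes among which reads can be split, and without untreated mouse 1 the stroma held no read and the adjusted p was 1. *Defb1*, a β-defensin of epithelial surfaces, went from 24.6, 0, 3.02 and 0.0748 to 368, 431 and 571 CPM in luminal cells, with untreated mouse 1 the highest of its group but far below E+P, and with 11 and 1 reads in untreated and E+P stroma. *Ppp1r1b*, the phosphatase inhibitor DARPP-32, rose 10.4-fold in luminal cells, from 2.12 ± 0.445 to 22.1 ± 7.37 CPM, with 36 and 1 reads in stroma. With the low stromal groups at the floor the interactions were 8.25 and 7.29 (adjusted p = 0.000469 and 0.00119, edgeR, and 0.0213 without untreated mouse 1 and 0.0121 without E+P mouse 1).

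*Plekhg4* (ENSMUSG00000014782.16, chromosome 8, 105373274 to 105382862), a guanine nucleotide exchange factor, rose in luminal cells from 0.310, 0.429, 0.351 and 0.449 to 138.1, 6.31 and 4.18 CPM. E+P mouse 1 stood far above the other E+P mice, yet all 3 lay above the untreated ones. With the near-empty E+P stroma (1 read) at the floor, its interaction was 9.88 (adjusted p = 0.000136, edgeR, and 0.0328 without E+P mouse 1). *Apol6*, an apolipoprotein L, went from 0.117 ± 0.137 to 21.5 ± 15.2 CPM in luminal cells. The interaction was 7.11 ± 0.98 (adjusted p = 0.00484, edgeR, and 0.0371 without E+P mouse 1). It overlaps the myoglobin gene on the other strand, as *Plekhg4* does *Kctd19*, and reads of such pairs may not be told apart, since the strand setting of the counting is not given in the sources used here. Among genes named below the same holds for *B2m* with *Patl2*, *Irf7* with *Phrf1* and *Grn* with *Fam171a2*, and *Nckap5* overlaps short gene models on its own strand.

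Sequences upstream of these genes were read from RefSeq (GRCm38.p6), since the genes moved together. Of the 156 higher and 58 lower genes, 106 and 46 had an entry with the 250 bases before a start site. The STAT5 motif TTCNNNGAA, searched on both strands, was found upstream of 8 of the 106 higher genes (7.55%), against 7.29% of the 11783 tested genes with an entry, and of 0 of the 46 lower genes. The palindromic element bound by progesterone and glucocorticoid receptors was found upstream of 1 higher gene, *Sgk1*, against 0.382% of tested genes, and the palindromic estrogen response element upstream of 0. The STAT5 share of the higher genes was near that of tested genes. The other shares rest on 0 or 1 gene, and their difference from the background was not tested. The windows of *Plekhg4* and *Pla2g7*, the leading genes with a STAT5 motif, and that of *Sgk1*, with the receptor element, are printed 5′ to 3′ on the plus strand with the motif in capitals.
Plekhg4 (chr8:105374977-105375226, plus strand): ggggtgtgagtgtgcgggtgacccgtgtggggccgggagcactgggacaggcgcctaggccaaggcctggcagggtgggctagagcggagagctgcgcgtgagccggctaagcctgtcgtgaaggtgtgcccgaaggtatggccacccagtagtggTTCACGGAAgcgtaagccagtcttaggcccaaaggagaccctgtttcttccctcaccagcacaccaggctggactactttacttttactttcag
Pla2g7 (chr17:43568201-43568450, plus strand): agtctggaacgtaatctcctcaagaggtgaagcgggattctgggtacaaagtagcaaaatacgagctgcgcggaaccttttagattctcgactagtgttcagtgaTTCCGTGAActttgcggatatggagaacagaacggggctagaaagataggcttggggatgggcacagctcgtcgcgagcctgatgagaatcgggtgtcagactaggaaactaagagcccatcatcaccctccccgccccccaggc
Sgk1 (chr10:21993640-21993889, plus strand): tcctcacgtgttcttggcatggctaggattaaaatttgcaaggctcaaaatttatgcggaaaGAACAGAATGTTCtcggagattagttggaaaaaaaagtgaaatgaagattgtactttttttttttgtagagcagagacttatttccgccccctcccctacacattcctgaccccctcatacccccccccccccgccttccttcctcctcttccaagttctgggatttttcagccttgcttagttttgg
The first base of the motif lies 94 bases before the RefSeq start in *Plekhg4* and 145 bases before it in *Pla2g7*, and that of the element 188 bases before 1 of the starts of *Sgk1*. Another *Sgk1* start has a STAT5 motif, which is among the 8. The windows of *Plekhg4* and *Pla2g7* lie inside the gene bounds given above, which begin further upstream than these RefSeq starts.

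*Sgk1*, the serum and glucocorticoid-induced kinase, is outside the rule for named genes and was chosen after its values were seen, together with *Tsc22d3* (GILZ), another classical target of glucocorticoid and progesterone receptors. *Sgk1* rose in luminal cells from 167, 86.3, 124.4 and 112 to 539, 467 and 452 CPM, while stroma was at 127 ± 44.5 and 91.9 ± 8.42 CPM. The luminal groups did not overlap. The interaction was 2.43 ± 0.25 (adjusted p = 0.00119, edgeR, at most 0.00797 with 1 mouse left out). *Tsc22d3* rose 8.51-fold in luminal cells, to 105 ± 15.5 CPM. The interaction was 2.85 ± 0.42 (adjusted p = 0.00671, edgeR, and 0.0353 without E+P mouse 3).

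The leading lower interactions were of genes that fell in luminal cells. *Nr3c2* (ENSMUSG00000031618.13, chromosome 8, 76899442 to 77245012), the mineralocorticoid receptor, was at 68.7, 66.0, 56.5 and 63.4 CPM in untreated and 4.12, 6.57 and 3.70 CPM in E+P luminal cells, against 43.5, 50.4, 47.0 and 34.3 and 48.2, 55.6 and 63.4 CPM in stroma. The luminal groups stood far apart, and the stromal groups overlapped. The interaction was −4.11 ± 0.29 (adjusted p = 0.000158, edgeR) and remained past 0.01 with any 1 mouse left out (at most 0.00198). *Esrrg* (ENSMUSG00000026610.13, chromosome 1, 187608791 to 188214885), the estrogen-related receptor γ, an orphan nuclear receptor, fell from 30.0, 21.99, 27.1 and 30.1 to 0.659, 2.10 and 1.63 CPM in luminal cells while stroma stayed between 1.33 and 6.26 CPM, so that the order of the compartments was reversed. The interaction was −5.17 ± 0.65 (adjusted p = 0.00362, edgeR, and 0.0247 without E+P mouse 3). *Nckap5* (ENSMUSG00000049690.15, chromosome 1, 125913620 to 126830799), a cytoskeleton-associated protein, fell from 130.4, 181, 126 and 196 to 12.2, 8.93 and 7.84 CPM in luminal cells, with stroma at 93.9 ± 18.8 and 103 ± 14.6 CPM. The interaction was −4.18 ± 0.25 (adjusted p = 0.000108, edgeR, at most 0.00112 with 1 mouse left out).

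Receptors of the Wnt and adrenergic pathways were among them. *Fzd4* (ENSMUSG00000049791.4, chromosome 7, 89404355 to 89413134), a Wnt and norrin receptor, fell in luminal cells from 31.6, 42.5, 53.7 and 37.7 to 2.55, 4.08 and 4.18 CPM, and stroma held 106, 96.2, 88.3 and 70.5 and 89.8, 94.3 and 79.7 CPM. The luminal groups did not overlap and the stromal ones did. The interaction was −3.48 ± 0.31 (adjusted p = 0.000574, edgeR, at most 0.00586 with 1 mouse left out). *Ror2*, a Wnt5a receptor kinase, fell from 13.98 ± 4.65 to 1.05 ± 0.660 CPM with stroma at 7.13 ± 2.24 and 8.09 ± 1.94 CPM. *Adra2a*, the α2A-adrenergic receptor, fell from 12.1 ± 5.29 to 1.63 ± 0.750 CPM in luminal cells, and its stroma was at 11.96, 38.7, 39.3 and 28.7 CPM untreated and 62.7, 54.5 and 64.3 CPM under E+P (stromal log2 change 1.03, adjusted p = 0.232, edgeR). Their interactions were −3.95 ± 0.57 and −3.99 ± 0.43 (adjusted p = 0.00574 and 0.00140, edgeR, and 0.0337 and 0.0109 without E+P mouse 3).

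The remaining leading lower genes were *Zfp979*, *Colgalt2*, *Pgm5*, *Cers4*, *Pde7b* and *Scarf2*, with luminal means between 2.67 and 12.4 CPM untreated and at most 1.07 CPM under E+P. *Zfp979*, a zinc finger gene of a family with near-identical members among which reads can be split, had 969 reads in the untreated luminal libraries and 0 under E+P, an interaction of −5.87 or beyond with the empty group at the floor (adjusted p = 0.00380, edgeR). *Cers4*, a ceramide synthase, and *Pde7b*, a cAMP phosphodiesterase, were already stromal transcripts, at 45.1 ± 14.5 and 60.1 ± 5.25 CPM in untreated stroma, and their differences widened. Of these 6 genes, *Scarf2* was the least stable, with an adjusted p of 0.00910 and 0.04996 without E+P mouse 2, and the highest adjusted p of the others with 1 mouse left out lay between 0.0139 and 0.0259.

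**Figure D3:**
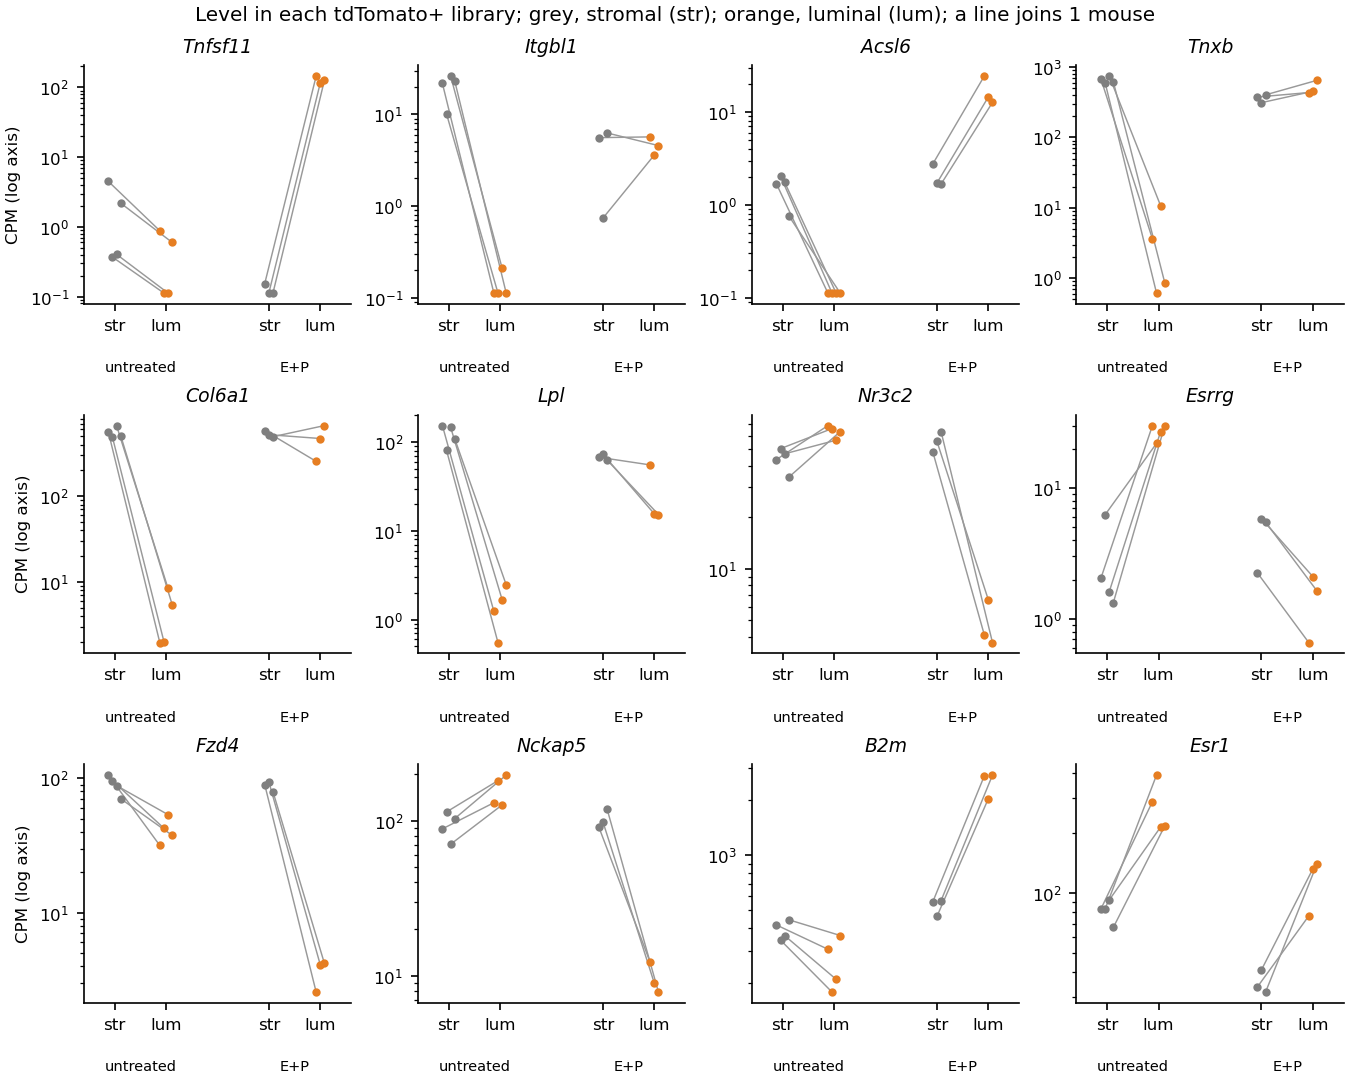
CPM (log axis) of 12 genes in each of the 14 tdTomato+ libraries, grey for stromal and orange for luminal cells, with a line joining the cells of 1 mouse. Values below 0.112 CPM are drawn at that floor. *Tnfsf11* was at 116 to 145 CPM in E+P luminal cells and at most 4.48 CPM elsewhere, *Nr3c2* was at 3.70 to 6.57 CPM in E+P luminal cells and at 34.3 CPM or more elsewhere, and for *Esr1* the groups did not overlap in either compartment.

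Among 23 tested genes of the estrogen and progesterone pathway, 4 had a higher interaction at 0.01 (*Tnfsf11*, *Fkbp5*, *Zbtb16* and *Ctsd*), 7 at 0.05, and 0 a lower one at either, with a median of 2.22 against 0.03 over all genes. The list's median luminal change was 0.42 and its median stromal change −0.44. Markers of hormone-sensing luminal cells summed to 354, 482, 697 and 241 CPM in the stroma of untreated mice 1 to 4 and to 230, 242 and 206 CPM in that of E+P mice, with untreated mice 2 and 3 the highest. Some of these markers are in the pathway list too, and their part in this median was not tested. At 0.05 alone were *Calca*, the R-spondin *Rspo1* (2.83) and *Tnfrsf11b* (5.15), the decoy receptor of RANKL. The share of genes called higher was 0.848% over all genes at 0.01 and 2.61% at 0.05, and 1.54% of all genes were lower at 0.05. *Fkbp5*, the co-chaperone of steroid receptors, was at 12.3, 8.39, 15.2 and 25.4 CPM in untreated and 296, 182 and 238 CPM in E+P luminal cells, and 29.3 ± 4.24 and 35.2 ± 5.13 CPM in stroma. The interaction was 3.77 ± 0.45 (adjusted p = 0.00383, edgeR, and 0.0270 without E+P mouse 3). *Zbtb16*, the transcription factor PLZF, rose 5.35-fold in luminal cells, from 90.4, 39.0, 36.2 and 38.7 to 206, 295 and 318 CPM. The interaction was 2.64 ± 0.34 (adjusted p = 0.00420, edgeR, and 0.0175 without E+P mouse 2). *Ctsd*, the lysosomal protease cathepsin D, rose from 86.4, 77.5, 66.2 and 51.9 to 379, 412 and 339 CPM, with stroma at 19.8 ± 4.54 and 22.6 ± 1.96 CPM. The interaction was 2.22 ± 0.20 (adjusted p = 0.000656, edgeR, at most 0.00643 with 1 mouse left out). In none of the 3 did luminal groups overlap.

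The receptors themselves did not pass for the interaction. *Esr1* had lower values under E+P in both compartments. Luminal cells went from 288, 391.6, 215 and 217 to 76.7, 132 and 140.0 CPM (log2 change −1.25, adjusted p = 0.00252, edgeR) and stroma from 83.2, 83.0, 92.2 and 67.1 to 33.7, 41.1 and 31.8 CPM (log2 change −1.20, adjusted p = 0.0537, edgeR). Neither pair of groups overlapped, and the interaction was −0.06 ± 0.28 (adjusted p = 0.959, edgeR), so a gap between the responses was not detected. *Pgr* was at 479 ± 198 and 662 ± 121 CPM in luminal cells. The interaction was 1.28 ± 1.11 (adjusted p = 0.624, edgeR). *Areg* was at 303 ± 113 and 370.1 ± 73.3 CPM in luminal cells and at 3.74, 12.6, 46.7 and 0 CPM in untreated stroma, where mice 2 and 3 were the highest, as for luminal epithelial genes, whose part in its interaction of 4.10 ± 1.62 (adjusted p = 0.247, edgeR) was not tested.

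In the prolactin and STAT5 pathway 0 of 16 tested genes passed 0.01 and 2 passed 0.05, both higher, against 2.61% of all genes. The list's median was 0.46. Of the 16 genes 6 had an unadjusted p under 0.05 in edgeR, and 4 passed 0.01 by DESeq2, 1 by limma-voom and 1 by limma on within-mouse differences. Over all genes these shares were 18.3%, 8.25%, 2.74% and 2.45%. *Socs2*, a feedback inhibitor induced by STAT5, rose in luminal cells from 6.67, 10.7, 11.1 and 37.8 to 273, 159 and 182 CPM against 29.3 ± 10.4 and 42.1 ± 2.68 CPM in stroma. The interaction was 3.34 ± 0.58 (adjusted p = 0.0213, edgeR, and 0.0861 without E+P mouse 1). *Jak2*, the kinase of the prolactin receptor, rose 2.82-fold in luminal cells. The interaction was 1.18 ± 0.28 (adjusted p = 0.0444, edgeR). *Stat5a* rose in luminal cells by 1.65 and *Stat5b* by 0.65 on the log2 scale (adjusted p = 0.000895 and 0.00751, edgeR), with interactions of 1.18 ± 0.39 and 0.47 ± 0.17 that did not pass (adjusted p = 0.144 and 0.183, edgeR). *Prlr*, the receptor, was at 2711, 3583, 2937 and 2391 and 987, 1609.7 and 1724 CPM in luminal cells and at 30.8, 148, 213 and 0.475 CPM in untreated stroma, high in mice 2 and 3 (adjusted p = 0.345, edgeR).

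Of 20 tested milk protein and secretory genes 0 passed 0.01 and 0 passed 0.05 in edgeR. Of these genes 6 had an unadjusted p under 0.05 in edgeR, and 0 passed 0.01 by DESeq2, 1 by limma-voom and 1 by limma on within-mouse differences. Their median interaction was 2.65, and 0.98 with low groups set to the floor, while the median luminal change was −0.04 and the median stromal change −1.56. *Csn3*, κ-casein, was at 172, 53.8, 146 and 207 CPM in untreated and 42.5, 42.4 and 23.996 CPM in E+P luminal cells, and *Csn2*, β-casein, was above 1 CPM in the luminal cells of untreated mouse 4 and E+P mouse 1 alone, at 17.4 and 17.96 CPM. Of the 12 luminal epithelial markers 0 passed 0.05 in edgeR, and their median interaction was 3.42, made of a luminal change of 0.27 and a stromal change of −3.58. An unadjusted p under 0.05 was reached by 5 of them in edgeR, and 0 passed 0.01 by DESeq2 or either limma fit. For *Krt8* the stroma was at 17.6, 81.8, 128 and 7.04 CPM untreated and 3.27, 12.8 and 1.44 CPM under E+P (interaction 3.31 ± 1.30, adjusted p = 0.246, edgeR), and the part of epithelial transcripts in the stroma in such medians was not tested. Among 14 lactation transporters 0 passed 0.01 and 2 were higher at 0.05, against 2.61% of all genes. They were the drug and riboflavin exporter *Abcg2* (2.43 ± 0.40, adjusted p = 0.0106, edgeR) and the water and glycerol channel *Aqp3* (6.07 ± 1.24, adjusted p = 0.0302, edgeR).

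Some matrix genes that were abundant in stroma rose in luminal cells. Of 24 tested collagens and small leucine-rich proteoglycans 2 were higher at 0.01, *Col6a1* and *Dcn*, against 0.848% of all genes. At 0.05 3 were higher and 1 lower, against 2.61% and 1.54% of all genes. The list's median was −1.18 (−0.61 with low groups at the floor). *Col6a1* (ENSMUSG00000001119.7, chromosome 10, 76708792 to 76726168), the α1 chain of collagen VI, was at 1.97, 2.02, 8.42 and 5.46 CPM in untreated and 255, 471 and 666 CPM in E+P luminal cells, and at 560.3, 486, 663 and 507 and 581, 521 and 494 CPM in stroma. E+P luminal levels thus reached the stromal range, 104-fold above untreated luminal cells. The interaction was 6.87 ± 0.62 (adjusted p = 0.00224, edgeR, and 0.0202 without E+P mouse 2). *Col6a2*, the α2 chain from the neighbouring gene, rose from 0.776, 0.858, 7.72 and 0.598 to 75.5, 169 and 320.4 CPM in luminal cells, with an interaction of 6.68 ± 0.98 that passed 0.05 and not 0.01 (adjusted p = 0.0174, edgeR).

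*Tnxb* (ENSMUSG00000033327.16, chromosome 17, 34670535 to 34719815), the matrix glycoprotein tenascin X, was at 3.62, 0.613, 10.7 and 0.860 CPM in untreated and 435, 453 and 649 CPM in E+P luminal cells, and at 674, 602, 745 and 618 and 376, 312 and 403 CPM in stroma. The luminal groups did not overlap, and the E+P luminal level was above that of the stroma in all 3 mice. The interaction was 8.55 ± 0.96 (adjusted p = 0.00714, edgeR, and 0.0518 without E+P mouse 2). *Dcn*, the proteoglycan decorin, rose in luminal cells from 4.603, 3.55, 8.14 and 2.28 to 22.2, 33.7 and 52.0 CPM, and in stroma was at 610.3, 179.7, 867 and 299 CPM untreated and 179, 169 and 288 CPM under E+P. The interaction was 4.04 ± 0.35 (adjusted p = 0.000634, edgeR, at most 0.00784 with 1 mouse left out). Of the 12 fibroblast markers, *Dcn* passed 0.01 and *Fbln1*, at 0.172 ± 0.217 and 0.883 ± 0.487 CPM in luminal cells, passed 0.05. *Col1a1*, the main fibrillar collagen, was at 4.87 ± 7.26 and 0.706 ± 0.258 CPM in luminal cells, and the 12 markers summed to 22.1, 10.5, 75.2 and 10.5 CPM untreated and 30.1, 42.7 and 58.7 CPM under E+P, overlapping groups in which *Dcn* is counted. *Col8a1*, a short-chain collagen, fell in luminal cells from 56.4, 40.2, 41.3 and 232 to 2.88, 10.6 and 11.2 CPM. The interaction was −4.33 ± 0.84 (adjusted p = 0.0366, edgeR).

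The 29 tested integrins, laminins and linkers had a median interaction of 0.01. *Lamc1*, a laminin chain of basement membranes, rose 4.39-fold in luminal cells, from 72.2, 127, 103 and 149.7 to 501, 499 and 488 CPM. The interaction was 2.19 ± 0.33 (adjusted p = 0.00760, edgeR, and 0.0432 without E+P mouse 3). *Hspg2*, the proteoglycan perlecan, was lower at 0.05 (−1.35 ± 0.31, adjusted p = 0.0418, edgeR), with stroma at 615, 751, 929.8 and 498 CPM untreated and 1232, 914 and 909 CPM under E+P. Among 23 matrix proteases and inhibitors none passed 0.01. At 0.05 the inhibitor *Timp1* (3.17) and the protease *Mmp19* (6.46) were higher and the plasminogen activator *Plat* (−1.97) was lower. Over all genes 2.61% were higher and 1.54% lower at 0.05.

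Among 7 tested PDGF ligands and receptors 0 passed 0.01 and 2 were higher at 0.05, against 2.61% of all genes. The list's median was 0.82. *Pdgfc* (ENSMUSG00000028019.9, chromosome 3, 81036416 to 81214040), a ligand of PDGFRα, rose in luminal cells from 25.8, 18.01, 25.3 and 25.4 to 53.3, 50.7 and 54.9 CPM, while stroma was at 9.71, 6.35, 9.74 and 4.28 and 5.06, 2.85 and 3.29 CPM. The luminal groups did not overlap and the stromal ones did, and the interaction was 2.17 ± 0.37 (adjusted p = 0.0125, edgeR, and 0.0668 without E+P mouse 2). *Pdgfrl*, a receptor-like protein, was higher by 2.01 ± 0.43 (adjusted p = 0.0294, edgeR). *Pdgfra* in stroma was at 219, 44.2, 277 and 91.1 CPM untreated and 45.3, 35.1 and 101 CPM under E+P, overlapping groups (interaction 1.62 ± 0.41, adjusted p = 0.0633, edgeR), and *Pdgfa*, the other main ligand, was at 14.5 ± 3.38 and 16.1 ± 5.69 CPM in luminal cells.

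Of 28 tested Wnt genes 1 was lower (*Fzd4*) and at 0.05 3 were higher, the secreted antagonist *Sfrp4* (6.45), the R-spondin *Rspo1* (2.83) and the R-spondin receptor *Lgr4* (1.40). *Lgr4* rose in luminal cells from 17.1, 16.5, 17.8 and 19.0 to 43.7, 64.3 and 75.6 CPM against 25.9 ± 4.27 and 33.2 ± 5.72 CPM in stroma (adjusted p = 0.0232, edgeR). Of 15 Notch genes 1 was lower, the target *Hey1*, which fell from 25.5, 18.4, 22.7 and 27.97 to 2.22, 3.78 and 3.13 CPM in luminal cells with stroma at 18.4 ± 2.91 and 14.8 ± 4.30 CPM. The interaction was −2.60 ± 0.41 (adjusted p = 0.00901, edgeR, and 0.0354 without E+P mouse 3). Among 13 FGF genes none passed 0.01 and *Fgfr1* was lower at 0.05, having fallen in luminal cells from 319.9, 244, 219.9 and 319 to 84.0, 115 and 106 CPM. The interaction was −1.45 ± 0.29 (adjusted p = 0.0227, edgeR). *Erbb2*, the only 1 of 14 EGF family genes past 0.05, rose in luminal cells from 146 ± 7.60 to 253 ± 17.2 CPM. The interaction was 1.08 ± 0.19 (adjusted p = 0.0156, edgeR). Of 28 TGF-β and BMP genes 0 passed 0.01 and 2 were higher at 0.05, *Ltbp1*, a latent TGF-β binding protein, and the receptor *Bmpr1b*. Beside the counts of these lists, the shares over all genes were 0.848% higher and 0.315% lower at 0.01, and 2.61% and 1.54% at 0.05.

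**Figure D4:**
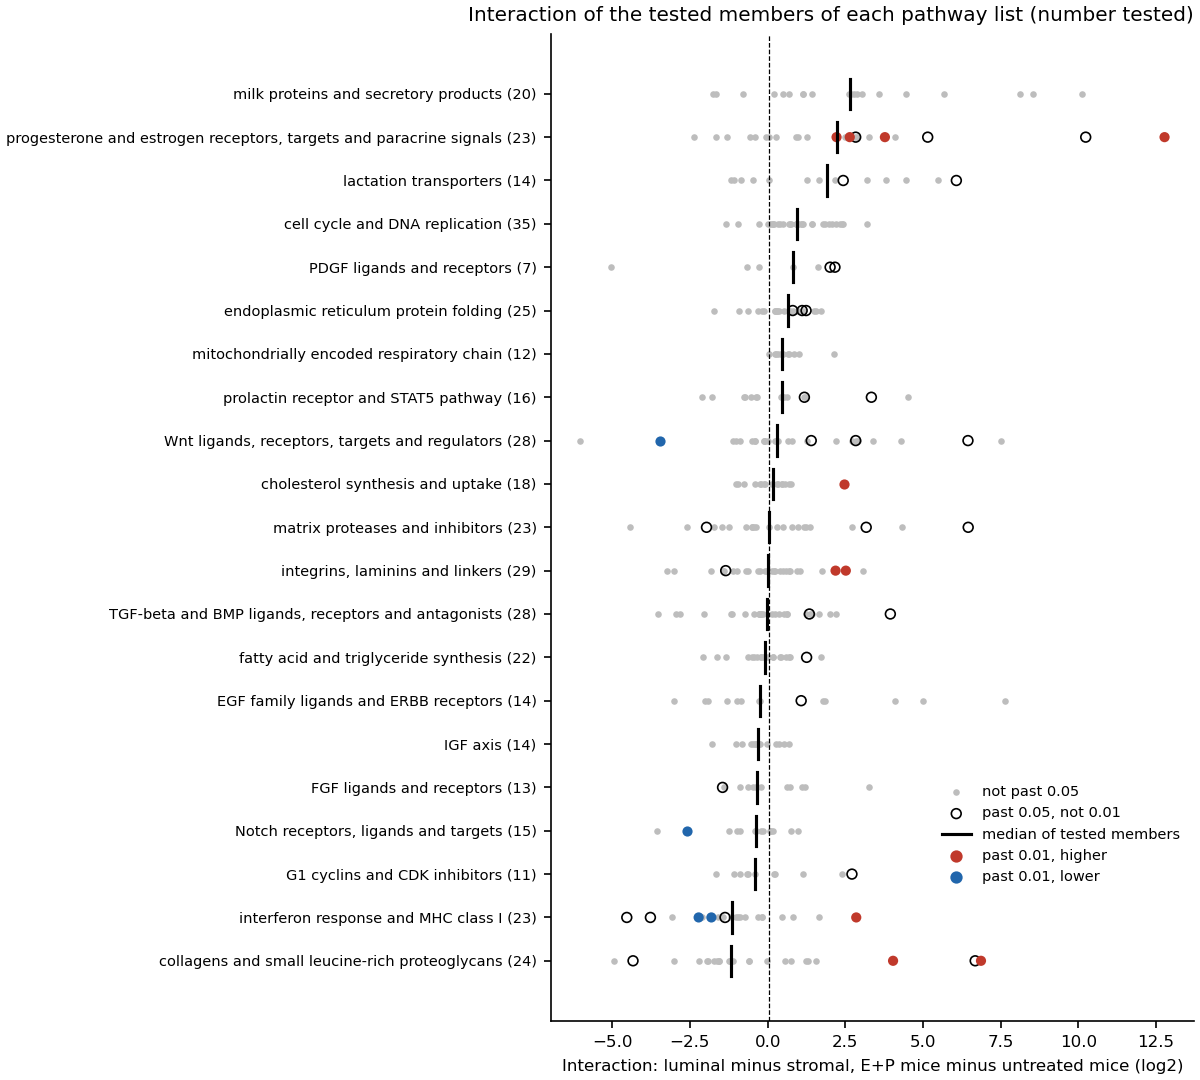
Interaction (log2, x axis) of the tested members of 21 pathway lists, with the number tested in brackets and a black bar at each list's median. Filled coloured points passed an adjusted p of 0.01, open points passed 0.05 only, and the dashed line is the median of all genes, 0.03. The hormone pathway list held 4 higher genes of 23, the interferon list 3 of 23, and 14 of the 21 lists held none past 0.01. Of all genes 1.16% passed 0.01.

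Interferon and MHC class I genes went in opposite directions within their list of 23, which had 1 higher and 2 lower genes at 0.01 (1 and 5 at 0.05) and a median of −1.15. Of all genes 0.848% were higher and 0.315% lower at 0.01, and 2.61% and 1.54% at 0.05. *B2m* (ENSMUSG00000060802.8, chromosome 2, 122147686 to 122153083), the light chain of MHC class I, rose in luminal cells from 306, 178, 209.6 and 364 to 2714, 2042 and 2746 CPM, while stroma held 415, 343, 363 and 444 and 557, 463 and 565 CPM. E+P luminal cells were the highest of all 4 groups with no overlap. The interaction was 2.85 ± 0.19 (adjusted p = 0.000153, edgeR, at most 0.00258 with 1 mouse left out). *Irf7*, a regulator of interferon genes, fell in luminal cells from 6.46, 7.72, 12.7 and 10.2 to 4.04, 3.52 and 3.37 CPM and was at 15.97, 17.4, 26.7 and 12.1 and 36.5, 33.1 and 28.9 CPM in stroma. The interaction was −2.22 ± 0.34 (adjusted p = 0.00731, edgeR, and 0.0419 without E+P mouse 2). *Ifit1*, an antiviral effector, had an interaction of −1.81 ± 0.27 (adjusted p = 0.00636, edgeR, and 0.0392 without E+P mouse 3), with luminal levels of 4.40, 4.04, 18.4 and 12.5 and 2.06, 1.93 and 2.64 CPM, and *Irf1*, *Oas2* and *Ifit3* were lower at 0.05 (−1.37, −3.77 and −4.53). Called genes outside the list included *Sp100* (−3.03 ± 0.29) and *Uba7* (−3.37 ± 0.42), both known as interferon-inducible, which fell in luminal cells (adjusted p = 0.000827 and 0.00321, edgeR).

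Lipid genes were few. *Lpl* (ENSMUSG00000015568.16, chromosome 8, 68880491 to 68907448), lipoprotein lipase, rose in luminal cells from 1.24, 0.551, 1.68 and 2.47 to 55.4, 15.5 and 15.3 CPM and was at 154, 80.9, 147 and 109 CPM in untreated and 67.6, 73.3 and 62.9 CPM in E+P stroma. The interaction was 4.87 ± 0.60 (adjusted p = 0.00522, edgeR, and 0.0267 without E+P mouse 3). It was the only 1 of 7 tested adipocyte genes to pass, and *Plin1*, which marks adipocytes, was at 0.188 ± 0.219 CPM in untreated luminal cells and at 0 in those of E+P mice. Of 22 fatty acid and triglyceride genes 0 passed 0.01 and 1, *Gpat4* (1.25), passed 0.05, against 4.15% of all genes.

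Beside *Ctsd*, 3 other higher genes with a role in lysosomes were chosen after their values were seen. *Ctns*, the lysosomal cystine transporter, rose 12.8-fold in luminal cells, from 23.8, 57.4, 34.9 and 15.7 to 274, 485 and 505 CPM, against 9.81 ± 2.79 and 7.32 ± 1.81 CPM in stroma. The interaction was 4.19 ± 0.30 (adjusted p = 0.000184, edgeR). *Npc2*, which carries cholesterol out of lysosomes, rose 7.02-fold (3.10 ± 0.27, adjusted p = 0.000574, edgeR) and *Grn*, progranulin, 6.81-fold (2.56 ± 0.30, adjusted p = 0.00225, edgeR). For *Ctns* and *Npc2* the adjusted p stayed at or under 0.00586 with 1 mouse left out, and for *Grn* it was 0.0174 without E+P mouse 2. Of the list of 25 protein folding genes 0 passed 0.01 and 3 were higher at 0.05, against 2.61% of all genes. The 3 were *P4hb* (1.24), *Pdia3* (1.11) and *Ssr1* (0.81), and the list's median was 0.66. Some endoplasmic reticulum genes outside the list were higher at 0.01, and those given here were chosen after their values were seen. They are *Rpn2* (1.85), *Os9* (2.48), *Ssr4* (2.19), *Ddost* (1.87) and *Erp29* (2.08) (adjusted p = 0.000574, 0.000966, 0.00236, 0.00480 and 0.00782, edgeR). With 1 mouse left out their highest adjusted p was 0.00758, 0.00866, 0.0185, 0.0317 and 0.0561, in the same order.

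In 10 further lists, among others, 0 genes passed 0.01 in edgeR. An unadjusted p under 0.05 was reached there by 6 of 14 lactation transporters, 13 of 23 matrix proteases and inhibitors, 3 of 7 PDGF genes, 5 of 13 FGF genes, 6 of 14 EGF family genes, 11 of 28 TGF-β and BMP genes, 7 of 22 fatty acid and triglyceride genes, 12 of 25 protein folding genes, 4 of 10 basal epithelial genes and 4 of 14 endothelial genes. By DESeq2 these lists had, in the same order, 4, 8, 3, 2, 1, 9, 4, 5, 3 and 4 genes past 0.01. By limma-voom each had at most 3, and by limma on within-mouse differences at most 2. Over all genes the shares were 18.3% (unadjusted p, edgeR), 8.25% (DESeq2), 2.74% (limma-voom) and 2.45% (limma on differences). Other lists with 0 genes past 0.01 had unadjusted counts of 1 of 14 (IGF), 1 of 13 (pericyte), 2 of 18 (skeletal muscle) and 0 of 9 (satellite cell). Schwann cell genes had 1 of 11, haematopoietic 2 of 11, erythroid 1 of 4, G1 cyclin 5 of 11 and immediate early genes 5 of 19. Noncoding RNAs had 3 of 12 and mitochondrial genes 5 of 12.

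Of 35 tested cell cycle genes 0 passed 0.01 or 0.05 for the interaction, with a median of 0.95 made of a luminal change of 1.40 and a stromal change of 0.23. Among the 35 genes 8 had an unadjusted p under 0.05 in edgeR, and 2 passed 0.01 by DESeq2, 0 by limma-voom and 0 by limma on within-mouse differences. The summed level was 256, 393, 477 and 397 CPM in untreated and 881, 777 and 615 CPM in E+P luminal cells, which did not overlap, and 271, 429, 305 and 238 CPM against 433, 316 and 309 CPM in stroma, which did. *Mki67*, the proliferation marker, was at 15.0, 58.6, 89.3 and 85.5 and 272, 233 and 175 CPM in luminal cells (luminal log2 change 1.87, adjusted p = 0.0933, edgeR) with an interaction of 0.94 ± 0.73 (adjusted p = 0.576, edgeR). Of 10 basal epithelial genes 2 passed 0.05, in opposite directions, against 4.15% of all genes. *Trp63* (3.72, adjusted p = 0.0383, edgeR), the basal transcription factor p63, rose in luminal cells from 0.259, 1.47, 0.842 and 1.94 to 25.2, 18.8 and 23.6 CPM, and *Oxtr*, the oxytocin receptor, had its highest levels in E+P stroma, at 23.02, 23.9 and 15.5 CPM against 2.15, 1.01, 3.69 and 7.23 CPM untreated (−2.26, adjusted p = 0.0232, edgeR).

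The stroma contributed little that could be called. At 0.01 the genes that fell in stroma were *Rab11fip4*, *Il18r1* and *Naaladl2*, named after their values were seen. At 0.05 there were 39 (0.212%), of which 9 rose (0.0489%) and 30 fell (0.163%). An unadjusted p under 0.05 was reached by 2643 of the 18387 genes in stroma, against 4988 in luminal cells (edgeR). The number at 0.01 was 0 without E+P mouse 2 or 3, and 59 without untreated mouse 4. *Rab11fip4* (ENSMUSG00000017639.13, chromosome 11, 79591212 to 79698023), an effector of RAB11 in endosome recycling, was the 1 gene of the interaction called in stroma alone. Its stroma went from 2.80, 3.13, 5.17 and 1.90 to 0.205, 0.0982 and 0 CPM (log2 change −4.87, adjusted p = 0.00180, edgeR), and its luminal level was 45.1 ± 8.65 and 64.9 ± 8.32 CPM. The interaction was 5.34 ± 0.67 (adjusted p = 0.00366, edgeR, and 0.0256 without E+P mouse 2). Luminal epithelial transcripts were also higher in untreated stroma as a group, and their part in this result was not tested. Without untreated mice 2 and 3 the stroma gave 10 genes, the 3 above among them. *Il18r1*, an interleukin receptor chain, fell in luminal cells as well (−3.11 on the log2 scale, against −5.17 in stroma), and its interaction did not pass (adjusted p = 0.208, edgeR).

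Whether the interaction was particular to tdTomato+ cells was tested against the GFP+ cells of the same mice in a fit of all 28 libraries. The interaction differed between the populations for 139 of 19569 genes (0.71%), 0.567% higher and 0.143% lower in tdTomato+ cells, and 208 genes (1.06%) had an interaction in GFP+ cells. The number 139 fell to 8 without E+P mouse 3, 9 without E+P mouse 2, 43 without untreated mouse 1 and 58 without E+P mouse 1. Of the 214 genes, 56 passed 0.01 for this difference, 52 of the higher and 4 of the lower genes, and 109 passed 0.05 (2.86% of all genes). For all 56 this difference had the same sign as the interaction in tdTomato+ cells, a direction that follows from their choice in these cells. Of the 214, 20 were also called in GFP+ cells with the same sign, among them *Nckap5* (GFP+ interaction −4.18), *Ror2* (−7.49), *Irf7* (−2.53) and *Tsc22d3* (2.05), and 1 with the opposite sign.

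*Nr3c2* and *Nrk* had the smallest adjusted p for this difference. *Nr3c2* in GFP+ luminal cells was at 33.2 ± 6.41 CPM untreated and 23.6 ± 4.95 CPM under E+P, and in GFP+ stroma at 26.1 ± 8.52 and 17.3 ± 2.94 CPM. Its interaction was 0.07 in GFP+ cells, and the difference of −4.24 from tdTomato+ cells had an adjusted p of 1.11e-05 (edgeR). *Nrk* (ENSMUSG00000052854.15, chromosome X, 138914430 to 139010532), a Nik-related kinase, rose in tdTomato+ luminal cells from 0.621, 0.551, 0.912 and 0.411 to 21.3, 26.9 and 23.3 CPM, with stroma at 5.23, 2.85, 4.57 and 3.99 and 1.89, 1.23 and 1.495 CPM. In GFP+ cells it was at 0.477 ± 0.227 and 3.30 ± 2.17 CPM in luminal cells and at 7.13 ± 2.89 and 73.9 ± 15.6 CPM in stroma, so that E+P stroma was far higher in GFP+ than in tdTomato+ cells (difference of the interactions 7.45, adjusted p = 6.49e-05, edgeR). *Esrrg* (−6.27, adjusted p = 0.00178, edgeR), *Sp100* (−3.31), *Uba7* (−2.89) and *Pla2g7* (7.25) also passed. For *Tnfsf11* the difference did not pass. Its GFP+ luminal level was 0.134 ± 0.180 CPM untreated and 17.8, 1.94 and 1.21 CPM in the 3 E+P mice (GFP+ interaction 4.84, difference 8.25, adjusted p = 0.0993, edgeR).

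**Figure D5:**
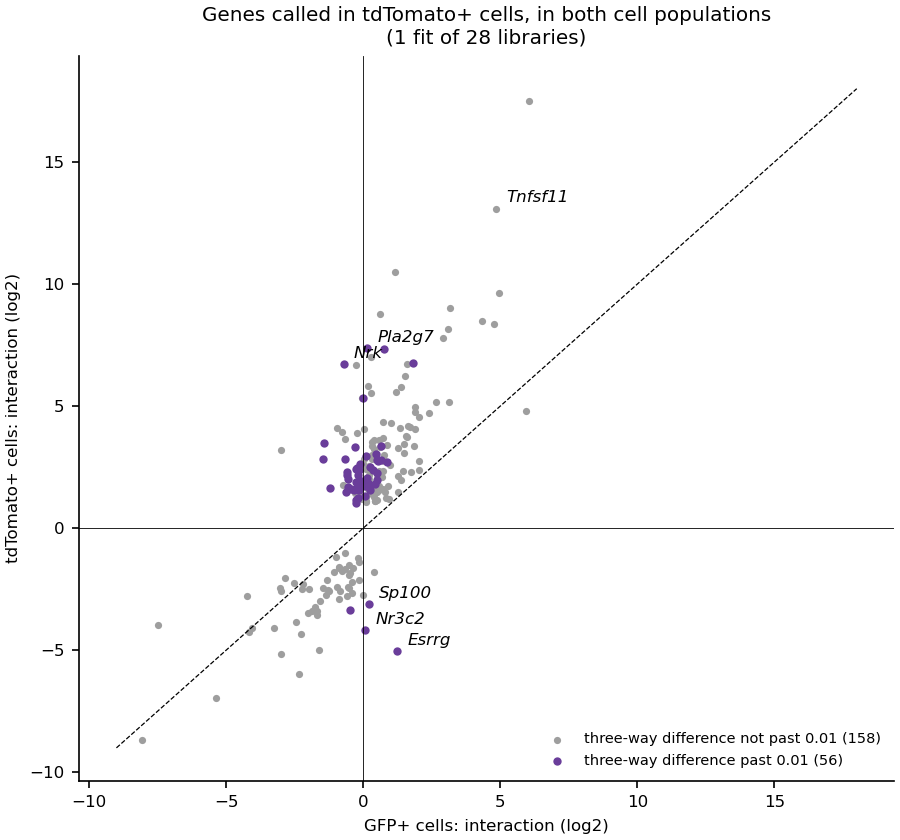
Interaction (log2) of the 214 genes in GFP+ (x axis) and tdTomato+ (y axis) cells of the same mice, from 1 fit of 28 libraries, with the dashed line at equal values. The 56 purple genes passed an adjusted p of 0.01 for the difference between the populations, and *Nr3c2* is near 0 in GFP+ cells and at −4.17 in tdTomato+ cells.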

How the data were processed

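RNA was measured in luminal and stromal tdTomato+ cells sorted from 7 mice. Per the labels and methods, the authors lysed sorted cells, made libraries with a stranded total RNA kit for low input (RNA integrity numbers from 1 to 10, fragmentation of 0 to 4 minutes), sequenced read pairs, aligned them with STAR 2.5.2a to GRCm38.p5 and deposited 1 table of raw counts per gene. The annotation release and the strand setting of the counting are not given in the sources used here. Symbols and coordinates come from GENCODE M21 on GRCm38, in which 50376 of 50600 identifiers were found. RNA this variable in integrity, and few cells, can raise the scatter between libraries.

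Groups came from sample titles. Genes were kept by edgeR's filterByExpr over the 4 groups (18387 of 50600), libraries were scaled by TMM, and the interaction was fitted with the mouse as a block (edgeR 4.0.16, quasi-likelihood F-test, robust, R 4.3.3, Benjamini-Hochberg, threshold 0.01). Log2 levels used a prior count of 2. The SE of an interaction is its absolute log2 value divided by the square root of the F statistic. It is therefore not a separately estimated standard error, and it is approximate where groups are near-empty. Hormone responses within a compartment were fitted without the block, and GFP+ cells were added in 1 fit of 28 libraries. On a single value over 7 mice the exact permutation test of 35 splits cannot go below 0.0286, so no such p is given. The luminal and stromal libraries of a mouse come from the same animal, and their deviations from the group means correlated at 0.0204 to 0.0666, with a mean of 0.0471, against −0.0185 between mice. Each mouse gives 1 library per cell population, so n counts mice. Totals were 10231034 to 24583803 counts. Scripts were tested on simulated data.

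Named genes were the 12 largest interactions in each direction among genes past 0.01 with a mean of at least 10 CPM in a group and no overlap of within-mouse differences, plus up to 6 members of each list by smallest p and its defining members. The members and lists were chosen with earlier results of these data known. Alternatives were other scalings and filters, DESeq2 1.42.0, limma 3.58.1, the fit without the block, 28 libraries and leaving out each mouse, and, added after seeing the data, leaving out untreated mice 2 and 3.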

Additional observations from a re-analysis of the deposited data

Results flagged for a closer look

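Among 40 groups of 4 values tested, 4 held a value far from the other 3, and chance flags about 1 in 20 groups. For the within-mouse luminal minus stromal difference in untreated mice, *Gda* was at −1.27 in mouse 4, against −3.75 to −3.41 in the others, and *Pla2g7* was at −6.70 in mouse 3, against −3.57 to −3.16. *Sprr2g* was at −2.87 in mouse 1 and at 0 in the others, since reads were seen in the stroma of that mouse only. Skeletal muscle markers summed to 89.8 CPM in the luminal cells of untreated mouse 3, against 9.86 to 16.9 CPM in the other untreated mice.

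The interaction differed between tdTomato+ and GFP+ cells for 139 genes at an adjusted p of 0.01. Of the genes named for this difference, *Pdzk1ip1* (10.15), *Aqp5* (8.15), *Nrk* (7.45) and *Pla2g7* (7.25) were higher in tdTomato+ cells, and *Esrrg* (−6.27), *Nr3c2* (−4.24), *Sp100* (−3.31) and *Uba7* (−2.89) were lower. Of these 8 genes, *Pdzk1ip1* and *Aqp5* did not pass 0.05 for the interaction within tdTomato+ cells (6.37 and 4.46, adjusted p = 0.0640 and 0.216, edgeR). *Pdzk1ip1* had 0 reads in E+P tdTomato+ stroma, so its values depend on the prior count. *Aqp5* was at 2.43, 14.3, 31.3 and 0 CPM in the stroma of untreated mice 1 to 4, highest in mice 2 and 3.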

How the results depend on the processing

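The 214 genes of the interaction became 404 with no filter on low counts, 1517 by DESeq2, 504 by limma-voom, 450.0 by limma on within-mouse differences, 995 in the fit of 28 libraries and 763 at 0.05, and 49 to 226 with 1 mouse left out. The fit without the mouse block gave 456 genes, 194 of the 214 among them, and DESeq2 held 213 of the 214. Other scalings, the stricter filter and leaving out untreated mice 2 and 3 stayed within 1.5 times, at 164 to 245. The 1255 luminal genes became 2300 by DESeq2, 2515 at 0.05, 593 to 1078 with 1 mouse left out and 778 without untreated mice 2 and 3. The 3 stromal genes became 355 by DESeq2, 1 by limma-voom, 39 at 0.05, 5 with the replicate number as a block, 10 without untreated mice 2 and 3, and 0 to 59 with 1 mouse left out. For the difference from GFP+ cells (three-way difference, percent of genes called) 0.71% became 2.86% at 0.05 and 0.0397% to 0.852% with 1 mouse left out. The cause of these shifts was not tested, beyond fewer mice in the fits that leave some out. Signs turned for genes past no threshold in the reported fit. The *Col1a1* interaction ran from −1.26 to 0.22 with 1 mouse left out (0.17 without untreated mice 2 and 3), the *Csn2* interaction from −0.10 to 6.32, the *Esr1* interaction from −0.34 to 0.17 and the *Pax7* interaction from −4.66 to 1.35 (0.82 without untreated mice 2 and 3), and the *Pgr* interaction was −0.51 without untreated mice 2 and 3. With scaling by library size alone 4 sums turned, the summed level of pericyte and smooth muscle to −0.0597, the summed level of fatty acid and triglyceride synthesis to −0.0745, the summed level of EGF family ligands and ERBB receptors to −0.149 and the summed level of immediate early and dissociation stress to −0.164. Near-empty groups limit depth, and 9 of the 214 genes had a group with 3 counts or fewer.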
